A study of Homo sapiens with 18 samples.

Results

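The genes described here encode subunits of the replicative DNA polymerases alpha, delta and epsilon, together with the sliding clamp PCNA. They are POLE, POLE2, POLE3, POLE4, POLA1, POLA2, POLD1, POLD2, POLD3 and PCNA, 10 of the 26668 gene symbols in the expression table, and all 10 were found by symbol. They were followed after knockdown of OFD1 in 3 established lines of human pancreatic cancer, PATU8988T, PANC1 and MIA PaCa-2. OFD1 is the gene of a centriole and centriolar satellite protein, and POLE3 was set against the other members. The set was selected on the measured knockdown changes of these libraries. For that reason the knockdown values of these 10 genes, and the comparison of POLE3 with the rest, are given as a description without a p-value.

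DNA polymerase alpha carries primase and lays down the short RNA-DNA primers from which both new strands start. Polymerase epsilon then extends the leading strand and polymerase delta the lagging strand, and both are held to DNA by the PCNA ring. POLE3 and POLE4 are small histone-fold proteins that pair with each other, sit on the epsilon holoenzyme and help to hand parental histones to the new strand, and POLE3 also pairs with CHRAC1 in a chromatin remodelling complex. Transcripts of many replication genes are made mainly around the entry into S phase and are regulated by E2F factors.

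The data were 18 RNA-seq libraries, 3 control and 3 OFD1 knockdown libraries for each line. Knockdown cells carried a Tet-on short hairpin RNA against OFD1 (genotype label shOFD1) and were collected after 72 h of doxycycline. Control cells are labelled WT with no treatment, and their titles read shControl. The methods of the study instead describe the Tet-on OFD1 hairpin lines of all 3 kinds, kept for 72 h in either DMSO or doxycycline. By the methods the controls held the OFD1 hairpin too, and the labels differ from this. The series text places controls at day 0 and knockdown at day 3, whereas the methods give both the same 72 h. If the series text holds, time in culture and knockdown cannot be told apart. Doxycycline is given for the knockdown cells only, so exposure to it and knockdown cannot be told apart either. Source labels of replicates 2 and 3 of PATU8988T name PaTu 8989T and PaTu 8990T, whereas their titles name PaTu 8988T, and the titles were followed. No label says that the replicates came from separate cultures, so the p-values below measure the spread between these libraries, which may be technical. The values are FPKM, read counts scaled to a kilobase of gene length and to the depth of the library, and the counted reads per library, recovered from the values, ranged from 32486479 to 39797537.

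OFD1 itself was measured at 5.12 to 5.67 FPKM in the PANC1 controls and 2.27 to 2.80 after knockdown, at 2.27 to 3.20 and 1.74 to 1.97 in MIA PaCa-2, and at 1.93 to 2.14 and 0.854 to 0.986 in PATU8988T. The knockdown libraries did not overlap the controls in any of the 3 lines, and the OFD1 mean was 46.9%, 63.9% and 44.2% of control. The epithelial keratins KRT8 and KRT18 were at 316 FPKM or more in every library, but KRT19 reached no more than 0.0194 FPKM in PATU8988T and EPCAM no more than 0.0991 in MIA PaCa-2. The leukocyte marker PTPRC was at 2.32 to 4.45 FPKM in MIA PaCa-2 controls and 5.89 to 6.22 after knockdown. The summed fibroblast markers of that line, nearly all COL3A1 with DCN at or near 0, went from 6.14 to 6.84 FPKM in controls to 29.7 to 30.7 after knockdown. Its summed mesenchymal markers, led by VIM with CDH2 at 0, went from 3480 to 3589 to 4785 to 4975. The fibroblast sum was highest in PANC1, where COL1A1 was at 22.0 to 26.6 FPKM. It was at 35.1 to 36.9 FPKM in PANC1 controls and 39.9 to 40.1 after knockdown, and at 2.90 to 3.25 and 3.05 to 3.74 in PATU8988T. In PANC1 the mesenchymal sum went from 1408 to 1424 FPKM to 795 to 817, and in PATU8988T from 779 to 812 to 591 to 623, while the endothelial markers PECAM1 and VWF stayed at or below 0.120 FPKM in all libraries. The part of these markers in the results was not tested.

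The start regions of POLE3, POLE4 and PCNA are shown first, because POLE3 and PCNA were the members with the largest decreases and POLE4, the histone-fold partner of POLE3, was the member that was higher in PANC1. Each sequence is the RefSeq promoter window on GRCh38.p14, from 250 bases before to 50 bases after the annotated start, written 5′ to 3′ on the strand of the gene. Capitals mark matches on either strand to an E2F word (TTTCCCGC, TTTCGCGC, TTTGCCGC or TTTGGCGC) or to the CCAAT box (CCAAT), and the CHR words TTTGAA and TTCGAA were searched as well. The POLE3 window is chr9:113410700-113410999 on the minus strand, the POLE4 window chr2:74958393-74958692 on the plus strand and the PCNA window chr20:5126573-5126872 on the minus strand.
POLE3: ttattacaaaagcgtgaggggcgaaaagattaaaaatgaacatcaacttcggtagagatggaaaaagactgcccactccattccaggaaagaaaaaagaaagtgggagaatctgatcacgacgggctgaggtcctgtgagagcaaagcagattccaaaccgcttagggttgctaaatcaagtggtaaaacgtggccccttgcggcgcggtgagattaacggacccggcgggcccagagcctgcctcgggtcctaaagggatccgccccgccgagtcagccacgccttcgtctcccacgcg
POLE4: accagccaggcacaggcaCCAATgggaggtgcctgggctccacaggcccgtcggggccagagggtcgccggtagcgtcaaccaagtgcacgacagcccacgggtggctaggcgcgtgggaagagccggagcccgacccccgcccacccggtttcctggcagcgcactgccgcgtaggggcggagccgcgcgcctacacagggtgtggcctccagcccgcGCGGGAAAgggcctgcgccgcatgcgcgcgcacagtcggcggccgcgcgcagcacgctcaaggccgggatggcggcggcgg
PCNA: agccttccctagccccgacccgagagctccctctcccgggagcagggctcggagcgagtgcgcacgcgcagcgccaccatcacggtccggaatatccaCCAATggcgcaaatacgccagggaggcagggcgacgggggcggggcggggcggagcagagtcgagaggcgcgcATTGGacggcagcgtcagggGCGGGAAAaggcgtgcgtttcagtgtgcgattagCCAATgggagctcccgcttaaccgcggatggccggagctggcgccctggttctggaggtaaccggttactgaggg

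None of the 3 motifs was found in the POLE3 window. The POLE4 window held 1 E2F word at positions -31 to -24 from the start and 1 CCAAT box at -232 to -228. The PCNA window held 1 E2F word at -59 to -52 and 3 CCAAT boxes, at -152 to -148, -79 to -75 and -25 to -21. The POLE3 window was also the poorest in G and C of the windows shown, at 53.7%, against 75.0% for POLE4 and 68.0% for PCNA. Windows were matched for 9 of the 10 members, all except POLD3. Of these, 6 held an E2F word (POLE, POLE2, POLE4, POLA1, POLA2 and PCNA), 5 held a CCAAT box (POLE, POLE4, POLA1, POLD2 and PCNA) and 0 held a CHR word, and in POLE a CCAAT box on one strand overlapped one on the other. Over all 35116 promoter windows of the same length, 3.31% held an E2F word, 34.6% a CCAAT box and 16.4% a CHR word. RefSeq and GENCODE do not place all starts alike. The RefSeq start of POLE3 lies 77 bases upstream of the GENCODE start, so the POLE3 window holds no base of the gene model whose coordinates are given below, and its motif result is for the RefSeq window only. For POLE4 and PCNA the RefSeq start lies 151 and 4 bases downstream. A match is only a run of letters, and the lack of one says nothing about binding outside the window.

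In the control libraries, PCNA was the most abundant of the 10 transcripts per length in all 3 lines, followed by POLD2, the regulatory subunit of polymerase delta, and then by POLE3. PCNA was at 85.6 ± 1.96 FPKM (SD, n = 3) in PANC1 controls, 213 ± 18.5 in MIA PaCa-2 and 139 ± 4.86 in PATU8988T. POLD2 was at 49.3 ± 0.339, 105 ± 19.5 and 60.5 ± 2.31 FPKM, and POLE3 at 28.7 ± 0.290, 72.2 ± 1.75 and 40.7 ± 1.81 FPKM. The control ranges of these 3 transcripts did not overlap each other in any line. Below them the order was less firm. In PANC1, the ranges of POLD3, POLD1, POLA2 and POLE2, at means of 8.39, 8.04, 7.30 and 7.08 FPKM, overlapped from each gene to the next. In MIA PaCa-2 the ranges overlapped in this way from POLD1 at 24.5 FPKM through POLE and POLE4 to POLA2 at 18.3, and again from POLD3 at 12.9 through POLA1 to POLE2 at 11.8, with a gap between POLA2 and POLD3. POLA1, the catalytic subunit of polymerase alpha, had the lowest mean of the members in PANC1, at 1.82 ± 0.211 FPKM, and in PATU8988T, at 8.85 ± 0.328 FPKM. In PATU8988T its range, 8.57 to 9.21 FPKM, overlapped that of POLE2, 8.23 to 10.7 FPKM. In every line POLE3 was above POLE, the catalytic subunit of its own enzyme, at 15.2 ± 0.323, 24.2 ± 2.62 and 17.9 ± 0.148 FPKM.

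**Figure D1:**
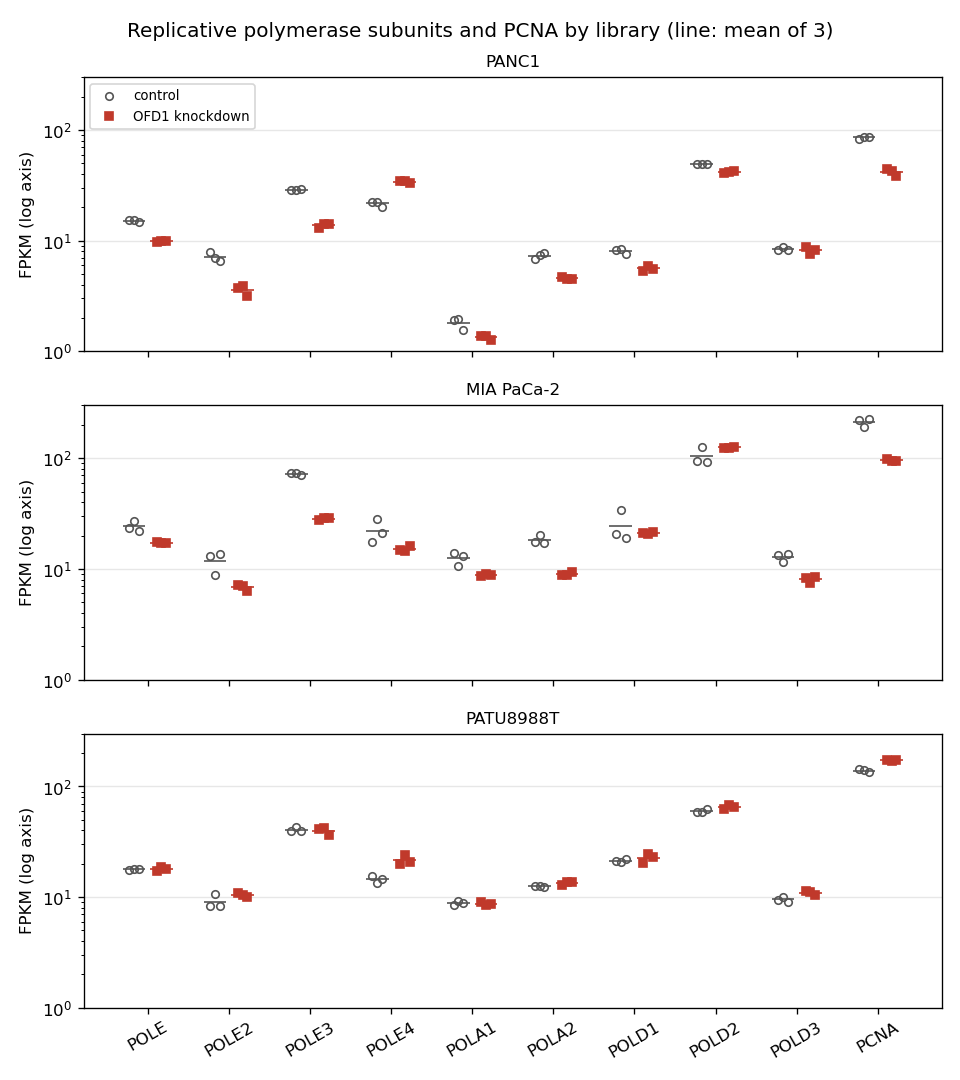
FPKM on a log axis of the 10 genes in each library of the 3 lines, with open circles for the 3 controls, filled squares for the 3 knockdown libraries and a line at each mean. POLE3 and PCNA lie below their controls in PANC1 and MIA PaCa-2, POLE4 lies above them in PANC1 and PATU8988T, and 1 MIA PaCa-2 control stands apart for POLD1 and POLD2.

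POLE3, on chr9:113407235-113410672 (minus strand, GRCh38, GENCODE), was at 28.5, 28.6 and 29.02 FPKM in the PANC1 controls and at 13.1, 14.1 and 14.2 FPKM after knockdown. In MIA PaCa-2 it was at 73.6, 72.9 and 70.3 FPKM in controls and at 27.9, 28.6 and 28.9 FPKM after knockdown. In both lines every knockdown library was below every control, and the knockdown means were 48.1% and 39.4% of control. In PATU8988T, the control libraries were at 39.6, 42.8 and 39.8 FPKM and the knockdown libraries at 41.4, 41.9 and 36.7 FPKM. There the groups overlapped and the knockdown mean was 98.1% of control. On the log2(FPKM + 0.1) scale the changes were -1.05 (SE 0.042) for PANC1, -1.34 (SE 0.065) for MIA PaCa-2 and -0.03 (SE 0.057) for PATU8988T. The MIA PaCa-2 value ranked 162nd from the lowest of 10758 genes tested and the PANC1 value 468th of 10902.

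POLE4, on chr2:74958492-74970128 (plus strand), moved differently from its histone-fold partner. It was at 22.5, 22.5 and 20.2 FPKM in PANC1 controls and at 34.7, 34.4 and 32.9 FPKM after knockdown, a change of 0.64 (log2, SE 0.048). In PATU8988T it was at 15.7, 13.5 and 14.4 FPKM in controls and at 20.1, 23.8 and 20.6 FPKM after knockdown, a change of 0.56 (SE 0.075). Every knockdown library was above every control in these 2 lines. In MIA PaCa-2 the controls were at 17.6, 28.0 and 21.0 FPKM and the knockdown libraries at 14.9, 14.5 and 15.9 FPKM, so the groups were apart in the other direction (log2 change -0.52, SE 0.17).

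The 2 partners were then set against each other within each library. The ratio of POLE3 to POLE4, both per length, was 1.26, 1.27 and 1.43 in PANC1 controls and 0.378, 0.410 and 0.431 after knockdown. In MIA PaCa-2 the ratio was 4.19, 2.60 and 3.35 in controls and 1.87, 1.98 and 1.81 after knockdown. In PATU8988T it was 2.53, 3.18 and 2.76 in controls and 2.06, 1.76 and 1.78 after knockdown. The groups did not overlap in any of the 3 lines, and the mean ratio after knockdown was 0.307, 0.558 and 0.662 times that of control. In PATU8988T the lower ratio came with POLE3 at 98.1% and POLE4 at 148% of control. The POLE3 to POLE ratio was lower without overlap in PANC1 (1.89 ± 0.0562 to 1.40 ± 0.0516) and MIA PaCa-2 (3.01 ± 0.279 to 1.66 ± 0.0445) but overlapped in PATU8988T (2.28 ± 0.0846 and 2.22 ± 0.185). The POLE4 to POLE ratio was 2.40 times control in PANC1 and 1.47 times in PATU8988T, both without overlap, and overlapped in MIA PaCa-2. The share of all genes whose ratio to POLE3 or to POLE moved without overlap was not computed. The lack of overlap is therefore a description and is not read as particular to these pairs.

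**Figure D2:**
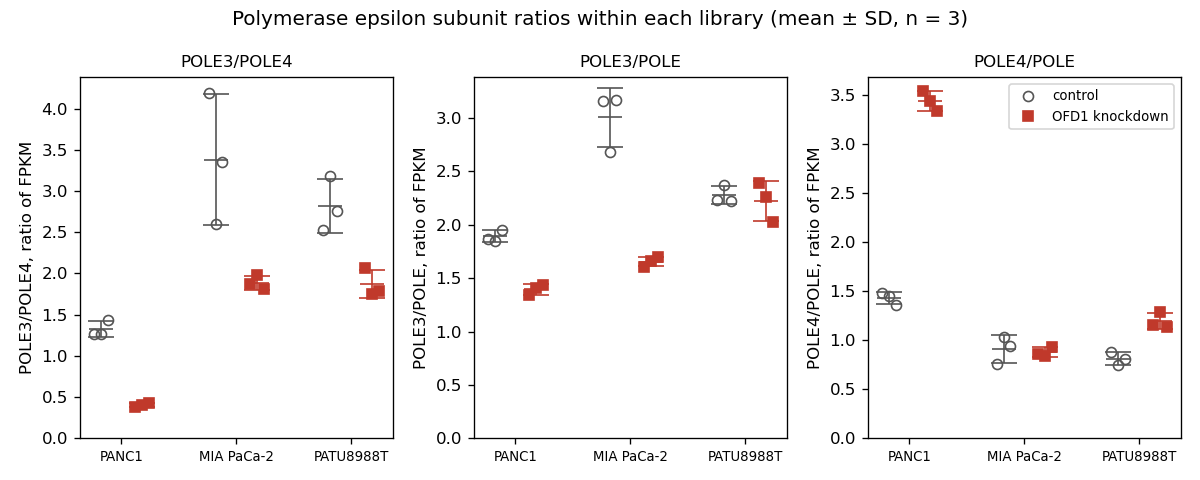
Ratios of FPKM within each library for POLE3 to POLE4, POLE3 to POLE and POLE4 to POLE, with points for single libraries and bars for mean ± SD of 3 control (circles) or 3 knockdown (squares) libraries per line. The POLE3 to POLE4 ratio is lower after knockdown in all 3 lines, at 0.406 against 1.32 in PANC1, and the POLE4 to POLE ratio is 3.44 in PANC1 against 1.43 in controls.

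The other subunits of polymerase epsilon were lower in 2 lines. POLE, on chr12:132623753-132687365 (minus strand), was at 14.8 to 15.5 FPKM in PANC1 controls and 9.80 to 10.0 after knockdown, and at 22.1 to 27.1 and 17.01 to 17.3 FPKM in MIA PaCa-2. These groups were apart, with log2 changes of -0.61 (SE 0.043) and -0.48 (SE 0.097), while the PATU8988T libraries overlapped at 17.7 to 18.05 and 17.3 to 18.5 FPKM. POLE2, on chr14:49643555-49688422 (minus strand), bridges the catalytic subunit to the rest of the replisome. It was at 6.48 to 7.83 FPKM in PANC1 controls and 3.13 to 3.88 after knockdown (log2 change -0.97, SE 0.097), and at 8.77 to 13.5 and 6.36 to 7.22 FPKM in MIA PaCa-2 (-0.75, SE 0.18). In PATU8988T its groups overlapped, at 8.23 to 10.7 FPKM in controls and 9.99 to 10.8 after knockdown.

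Both subunits of polymerase alpha were lower in the same 2 lines. POLA1, on chrX:24693919-24996986 (plus strand), was at 1.57 to 1.94 FPKM in PANC1 controls and 1.26 to 1.39 after knockdown, and at 10.7 to 13.8 and 8.64 to 9.004 FPKM in MIA PaCa-2. POLA2, the accessory B subunit on chr11:65261762-65305589 (plus strand), was at 6.80 to 7.71 and 4.46 to 4.72 FPKM in PANC1. In MIA PaCa-2 the POLA2 controls were at 17.5, 20.1 and 17.3 FPKM and the knockdown libraries at 8.85, 8.83 and 9.45 FPKM, or 49.5% of control. The log2 changes were -0.41 (SE 0.12) for POLA1 and -0.67 (SE 0.067) for POLA2 in PANC1, and -0.49 (SE 0.11) and -1.01 (SE 0.094) in MIA PaCa-2. In PATU8988T the POLA1 groups overlapped, whereas the 3 POLA2 knockdown libraries, at 12.9 to 13.8 FPKM, were just above the controls at 12.4 to 12.7, a change of 0.09 (SE 0.046) that did not pass the threshold.

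The subunits of polymerase delta did not move together. POLD1, the catalytic subunit on chr19:50384204-50418016 (plus strand), was at 7.53 to 8.32 FPKM in PANC1 controls and 5.36 to 5.94 after knockdown (log2 change -0.51, SE 0.066). In MIA PaCa-2 its controls were at 20.5, 33.9 and 19.1 FPKM and its knockdown libraries at 20.9, 20.6 and 21.5 FPKM, and the groups overlapped. POLD2, on chr7:44114681-44124358 (minus strand), was at 48.9 to 49.6 FPKM in PANC1 controls and 40.5 to 42.9 after knockdown, a decrease to 84.5% of control without overlap. In MIA PaCa-2, POLD2 was at 93.9, 127 and 92.9 FPKM in controls and at 125, 124 and 126 FPKM after knockdown. POLD3, on chr11:74493851-74669117 (plus strand), joins delta to PCNA. Its groups overlapped in PANC1 at 8.18 to 8.79 and 7.60 to 8.75 FPKM, were apart in MIA PaCa-2 at 11.6 to 13.6 in controls and 7.42 to 8.45 after knockdown, and were apart in the other direction in PATU8988T at 9.06 to 10.0 and 10.4 to 11.4. The log2 changes of POLD3 were -0.03 (SE 0.064), -0.67 (SE 0.11) and 0.20 (SE 0.058). In PATU8988T the libraries of POLD1 and POLD2 overlapped, with changes of 0.09 (SE 0.065) and 0.10 (SE 0.046).

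PCNA, on chr20:5114953-5126626 (minus strand), followed POLE3 closely in 2 lines and departed from it in the third. Its PANC1 controls were at 83.4, 86.1 and 87.2 FPKM and its knockdown libraries at 44.9, 42.4 and 38.5 FPKM (log2 change -1.03, SE 0.050). In MIA PaCa-2 it was at 224, 192 and 224 FPKM in controls and 97.7, 94.8 and 94.6 after knockdown (-1.15, SE 0.079). In PATU8988T it was at 144, 139 and 134 FPKM in controls and 173, 170 and 173 after knockdown (0.30, SE 0.036). The groups were apart in all 3 lines, lower in the first 2 lines and higher in PATU8988T. The annotation lists 3 PCNA pseudogenes and 1 POLD2 pseudogene, so reads of these 2 genes may have been split, and the counting of strand is not given in the sources used here.

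In PANC1, 8 of the 10 genes were past an adjusted p of 0.05 (limma, Benjamini-Hochberg) as lower and 1, POLE4, as higher, where 32.2% of the 10902 genes tested were called lower and 40.1% higher. In MIA PaCa-2, 8 were called lower and 0 higher, against 21.7% and 18.7% of 10758 genes. In PATU8988T, 0 were called lower and 3 higher (POLE4, POLD3 and PCNA), against 18.5% and 20.9% of 10698 genes. With a fold under 0.5 added, POLE3 and PCNA remained in PANC1 and POLE3, PCNA and POLA2 in MIA PaCa-2, where the shares of all genes were 4.84% and 3.68%, and no gene of the set remained in PATU8988T, where the share was 0.841%. Without overlap of the libraries, 8 members were lower and 1 higher in PANC1 (all genes 33.4% and 41.7%), 8 and 0 in MIA PaCa-2 (31.3% and 28.0%) and 0 and 4 in PATU8988T (24.0% and 27.9%). These counts rest on the contrasts that chose the genes, so nothing is read from them. In MIA PaCa-2, leaving out any one of the 3 knockdown libraries reduced the lower calls from 8 to 5, and POLE2, POLE4 and POLA1 were no longer called. The 10 genes had median log2 changes of -0.56, -0.60 and 0.10 in PANC1, MIA PaCa-2 and PATU8988T, and all genes tested had 0.06, -0.03 and 0.03.

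POLE3 had the lowest log2 change of the 10 genes in each line, but by different margins. PCNA was lower in PANC1 with a pseudocount of 1 or without knockdown library 1, and POLA1 was lowest in PATU8988T without knockdown library 3, where POLE3 was at 0.03. In PANC1 it was at -1.05 and the next gene, PCNA, at -1.03, a margin smaller than either SE. In MIA PaCa-2 it was at -1.34 and PCNA at -1.15. In PATU8988T it was at -0.03 and POLA1 at -0.02, again within the SE. The median of the other 9 genes was -0.51, -0.52 and 0.10, so POLE3 lay below that median by log2 differences of -0.54 for PANC1, -0.82 for MIA PaCa-2 and -0.13 for PATU8988T. Computed for single knockdown libraries, the difference was -0.59 to -0.49 in PANC1, -0.83 to -0.75 in MIA PaCa-2 and -0.28 to -0.01 in PATU8988T. The control libraries gave -0.03 to 0.05, -0.12 to 0.08 and -0.03 to 0.07, so 1 or more PATU8988T knockdown libraries fell within the control range and those of the other lines did not.

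**Figure D3:**
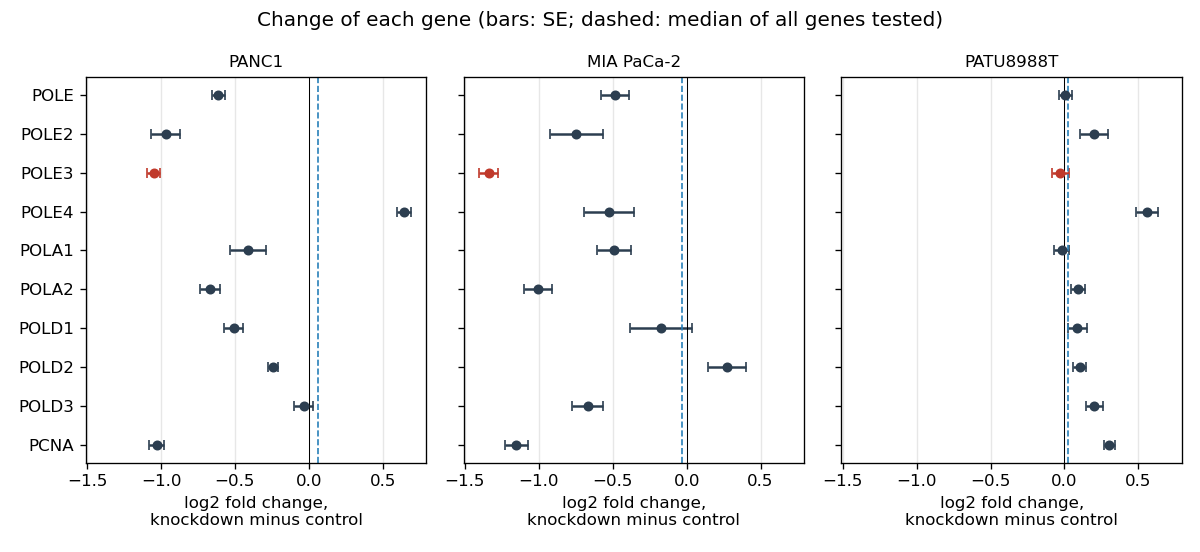
Log2 fold change of each gene, knockdown minus control, in each line, with bars for the SE of the limma fit on log2(FPKM + 0.1), POLE3 in red and a dashed line at the median of all genes tested. POLE3 and PCNA are at -1.05 and -1.03 in PANC1, the values in PATU8988T lie between -0.03 and 0.56, and POLE4 is the highest in PANC1 and PATU8988T.

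One MIA PaCa-2 control library, replicate 2, stood apart from the other 2 for most members and touches the values above. On the log2 scale it was above the mean of controls 1 and 3 by 0.77 for POLD1, 0.55 for POLE4 and 0.45 for POLD2, and it differed by -0.59 for POLE2 and -0.32 for POLA1. For POLE3 the difference was 0.02. Across the 10 genes these differences followed the GC content of the longest annotated transcript, from 42.9% in POLA1 to 65.0% in POLD1 (Pearson r = 0.89 over 10 genes of the same library, a description). Over 9902 tested genes with a known transcript, the same r was 0.88, while controls 1, 2 and 3 gave between -0.10 and 0.14 in PANC1 and between -0.21 and 0.38 in PATU8988T. The part of this library in the results can be measured by leaving it out. Set against controls 1 and 3 alone, POLD1 and POLD2 were higher without overlap in MIA PaCa-2, at 106% and 134% of control, the other 8 genes stayed lower without overlap, and POLE3 was at 39.6%. The POLD1 change was then 0.08 on the log2 scale and did not pass the threshold. Its lowest knockdown library was at 20.6 FPKM, beside 20.5 in control 1. The share of all genes without overlap was not computed for these fewer controls. Members with more GC also had higher changes in MIA PaCa-2, with r = 0.59 over the 10 genes with all controls and 0.73 without control 2. Over 9902 genes the corresponding r was -0.14 and 0.13, and whether GC content bears on the MIA PaCa-2 changes was not tested.

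**Figure D4:**
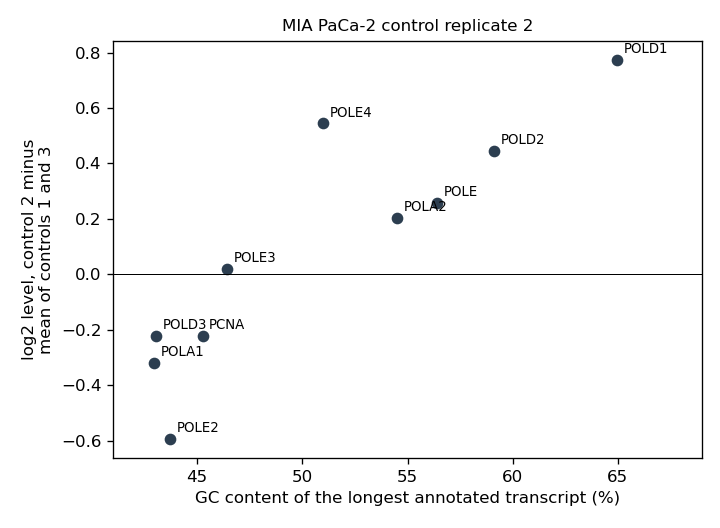
Difference in log2 level between MIA PaCa-2 control replicate 2 and the mean of controls 1 and 3 (vertical axis) against the GC content of the longest annotated transcript in percent (horizontal axis), 1 point per gene. The 4 genes under 46% GC are below 0, POLE3 is at 0.02, and POLD1, at 65.0% GC, is the highest at 0.77.

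The control levels of these genes could be set side by side for MIA PaCa-2 and PATU8988T, whose columns were made with the same gene lengths. PANC1 was left out because its columns were made with other lengths for some genes, 1097 bases for POLE3 against 2268 in the other 2 lines. Control values enter the contrasts that chose the genes, so this is a description without a test. POLE3 was 1.77-fold higher in the MIA PaCa-2 controls, a log2 difference of 0.83, and all 3 of them were above all 3 PATU8988T controls. POLD2 was 1.73-fold higher, PCNA and POLE4 1.53-fold and POLA2 1.45-fold. The remaining genes were 1.15-fold (POLD1) to 1.41-fold (POLA1) higher, and without MIA PaCa-2 control 2 POLD1 was lower there, by a log2 difference of -0.11. The log2 difference was then smaller for POLD2 (0.78 to 0.63), POLE4 (0.58 to 0.40), POLA2 (0.53 to 0.46) and POLE (0.43 to 0.34). It was larger for PCNA (0.61 to 0.69), POLA1 (0.49 to 0.59), POLD3 (0.43 to 0.50) and POLE2 (0.36 to 0.55). For POLE3 it was 0.82.

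The subunits of the same enzymes outside the set were POLD4, the small subunit of delta, and the primase subunits PRIM1 and PRIM2. PRIM1, which makes the RNA primer, fell in PANC1 from 13.7 ± 1.45 to 7.16 ± 0.476 FPKM (log2 change -0.92, limma adjusted p = 3.18e-06). PRIM2 fell there from 3.61 ± 0.250 to 2.22 ± 0.365 FPKM (-0.69, limma adjusted p = 0.000417). In MIA PaCa-2 neither passed, at -0.34 (limma adjusted p = 0.131) and -0.29 (adjusted p = 0.258), whereas without control 2 the changes were -0.52 (limma adjusted p = 5.06e-06) and -0.50 (adjusted p = 0.000428), and over all alternatives the adjusted p ranged from these values to 0.312 and 0.523. In PATU8988T they were at 0.06 and 0.05 (limma adjusted p = 0.341 and 0.447). The change of PRIM1 differed between PANC1 and PATU8988T (log2 difference -0.98, limma adjusted p = 0.000199) and between PANC1 and MIA PaCa-2 (-0.58, adjusted p = 0.00857). POLD4 fell in PATU8988T from 14.8 ± 1.06 to 11.02 ± 1.08 FPKM (-0.42, limma adjusted p = 0.00224), and fell slightly in PANC1 (-0.16, adjusted p = 0.0270), a call lost without control 2 or knockdown library 1 or 3. In MIA PaCa-2 it was at 0.29 (limma adjusted p = 0.254), and its change there differed from that in PATU8988T by 0.71 (adjusted p = 0.00490).

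Of 7 chromatin partners of POLE3 and other histone-fold pairs, 4 fell in PANC1, 2 fell in MIA PaCa-2, or 6 without control 2 of that line, and 1 fell and 3 rose in PATU8988T. SMARCA5, the ATPase of the remodelling complex that holds POLE3 and CHRAC1, fell from 14.5 to 6.13 FPKM in PANC1 (log2 change -1.23, limma adjusted p = 9.66e-09) and from 20.3 to 7.53 FPKM in MIA PaCa-2 (-1.40, adjusted p = 0.00129). In PATU8988T it fell by 0.18 on the log2 scale (limma adjusted p = 0.0281), a call lost without control 1 or 2 or knockdown library 2 or 3, and its change in MIA PaCa-2 was lower than that in PATU8988T, by a log2 difference of -1.22 (limma adjusted p = 8.90e-06). BAZ1A, the large subunit of the same complex, fell in PANC1 (-0.65, limma adjusted p = 1.84e-06), was at -0.48 in MIA PaCa-2 (adjusted p = 0.0597) and rose in PATU8988T (0.34, adjusted p = 0.00114). CHRAC1, the other histone-fold partner of POLE3, was at -0.09 in PANC1 (limma adjusted p = 0.116) and -0.33 in MIA PaCa-2 (adjusted p = 0.127) and rose in PATU8988T (0.24, adjusted p = 0.00428). DR1, a histone-fold repressor of transcription, fell in PANC1 (-1.15, limma adjusted p = 7.50e-07) and MIA PaCa-2 (-0.93, adjusted p = 0.00487) and was at -0.09 in PATU8988T (adjusted p = 0.310). Its partner DRAP1 fell in PANC1 (-0.46, limma adjusted p = 4.89e-07) and was at -0.25 (adjusted p = 0.0669) and 0.09 (adjusted p = 0.0502) in the other lines. The CCAAT-binding pair NFYB and NFYC did not pass in PANC1 or MIA PaCa-2, with log2 changes between -0.23 and 0.11, and NFYC rose in PATU8988T (0.26, limma adjusted p = 0.00327).

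Around the polymerases, the replication genes of the list moved with the same division of the lines. The list held 42 genes, of which CHTF8 was not analysed here and 41 were tested. In PANC1, 33 fell and 4 rose, with a median log2 change of -0.72, in MIA PaCa-2, 20 fell and 0 rose, with a median of -0.51, and in PATU8988T, 3 fell and 15 rose, with a median of 0.11. Without MIA PaCa-2 control 2 the count that fell there was 36, and over the PATU8988T libraries left out in turn 10 to 16 rose. The difference between lines was itself tested gene by gene: 29 of 41 changes were lower in PANC1 than in PATU8988T and 0 higher, 27 were lower in MIA PaCa-2 than in PATU8988T and 1 higher, and 14 were lower in PANC1 than in MIA PaCa-2 and 2 higher (limma interaction terms, adjusted over 9083 genes). Of all 9083 genes, 18.7% were lower and 17.1% higher in the first of these comparisons, 31.0% and 21.8% in the second, and 17.3% and 26.1% in the third. The interaction terms take a common spread per gene from all 18 libraries, including MIA PaCa-2 control 2, which stood apart. The SE of a comparison with MIA PaCa-2 can therefore be too small. The interaction terms were not recomputed without control 2. The lists were chosen with earlier results known, so these counts are a description.

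The helicase list held the subunits of CMG, which unwinds DNA ahead of the polymerases, and MCM10, which binds and activates it. All 12 genes fell in both PANC1 and MIA PaCa-2, or 10 in MIA PaCa-2 without any one knockdown library. The lowest were MCM10 (log2 change -1.87, limma adjusted p = 4.47e-06) and GINS2 (-1.66, adjusted p = 3.26e-07) in PANC1, and GINS2 (-1.57, adjusted p = 0.000192) and MCM10 (-1.29, adjusted p = 0.000598) in MIA PaCa-2. The smallest decreases were in GINS4 in PANC1 (-0.62, limma adjusted p = 0.000589) and GINS3 in MIA PaCa-2 (-0.29, adjusted p = 0.0440), the latter lost without control 1 or 3 or any one knockdown library. In PATU8988T 0 of 12 fell and 6 rose, led by MCM3 (0.28, limma adjusted p = 0.000501), with GINS4 and MCM10 lowest at -0.07 and -0.05. By the interaction test, each of the 12 changes in PATU8988T was above that in PANC1 and above that in MIA PaCa-2.

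Of 9 clamp loader genes, whose products place PCNA on DNA or remove it, 8 fell and 1 rose in PANC1, 3 fell in MIA PaCa-2, and 1 fell and 2 rose in PATU8988T. Without control 2 the MIA PaCa-2 count was 7. ATAD5, an unloader of PCNA, was lowest in PANC1 (log2 change -1.08, limma adjusted p = 6.91e-05), followed by RFC4 (-0.98, adjusted p = 1.16e-08), and RAD17, a checkpoint loader, rose (0.22, adjusted p = 0.000787). In MIA PaCa-2, RFC1 (-0.97, limma adjusted p = 0.00479) and RFC4 (-0.79, adjusted p = 0.000833) were lowest and RAD17 was at 0.37 (adjusted p = 0.173). In PATU8988T, RFC1 fell by 0.17 on the log2 scale (limma adjusted p = 0.0154), a call lost without control 2 or 3, ATAD5 was at -0.12 (adjusted p = 0.425), and DSCC1, a subunit of the alternative loader, rose (0.36, adjusted p = 0.00395).

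Of 7 genes of Okazaki fragment processing, 4 fell and 1 rose in PANC1, 2 fell in MIA PaCa-2, and 1 fell and 3 rose in PATU8988T. The MIA PaCa-2 count was 7 without control 2 and 1 without any one knockdown library, and 1 gene rose in PATU8988T without control 1, control 2 or knockdown library 3. LIG1, the ligase that seals the fragments, fell in all 3 lines, by 1.24, 0.54 and 0.15 on the log2 scale (limma adjusted p = 3.47e-08, 0.0438 and 0.0165), but the MIA PaCa-2 call was lost without any one knockdown library and the PATU8988T call without control 1 or knockdown library 3. RNASEH2A, which removes primers, fell in PANC1 (-0.99, limma adjusted p = 3.97e-08) and was at -0.03 in PATU8988T (adjusted p = 0.676). FEN1, the flap nuclease, fell in MIA PaCa-2 from 73.1 to 36.8 FPKM (-0.98, limma adjusted p = 0.000956) and rose in PATU8988T (0.23, adjusted p = 0.00337). The highest values were those of RNASEH1 in PANC1 (0.32, limma adjusted p = 7.84e-05) and DNA2 in MIA PaCa-2 (0.05, adjusted p = 0.860).

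Of 10 fork factors, 6 fell and 2 rose in PANC1, 3 fell in MIA PaCa-2, or 8 without control 2, and 4 rose in PATU8988T. CLSPN, the checkpoint mediator claspin, fell in PANC1 (log2 change -1.30, limma adjusted p = 5.56e-07) and MIA PaCa-2 (-0.98, adjusted p = 0.00109) and rose in PATU8988T (0.40, adjusted p = 0.00133). TOP2A, the topoisomerase of S and G2 phase, fell in PANC1 (-1.27, limma adjusted p = 9.25e-10) and was lowest of the list in PATU8988T at -0.08 (adjusted p = 0.317), next to WDHD1 at -0.05 (adjusted p = 0.535). TIPIN fell in MIA PaCa-2 (-0.63, limma adjusted p = 0.00801). RPA2, of the single-strand binding complex, was highest in PANC1 (0.32, limma adjusted p = 0.000548), and TOP1 was highest in MIA PaCa-2 (0.26, adjusted p = 0.250).

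**Figure D5:**
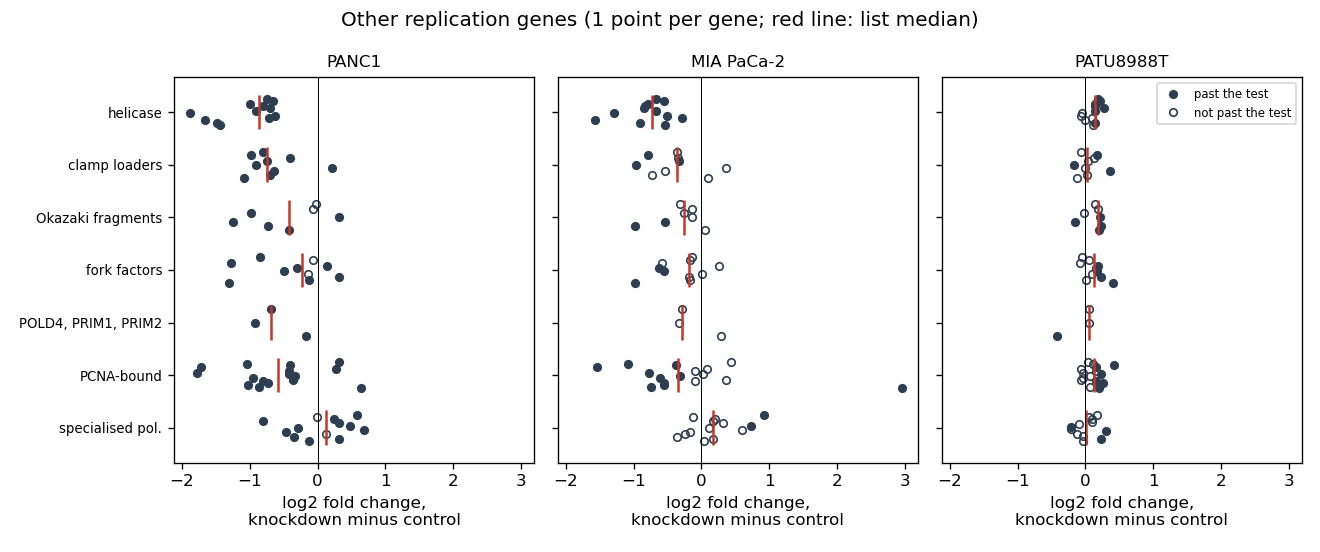
Log2 fold change, knockdown minus control, of the genes of 7 lists in each line, 1 point per gene, filled where limma's adjusted p was under 0.05 and open otherwise, with a red line at each list's median. Helicase medians are -0.86 for PANC1, -0.73 for MIA PaCa-2 and 0.14 for PATU8988T, and those of the specialised polymerases at 0.13, 0.17 and 0.01.

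Of 16 genes of proteins that bind PCNA, 13 fell and 3 rose in PANC1, 9 fell, 1 rose and 6 did not pass in MIA PaCa-2, and 0 fell and 7 rose in PATU8988T. The PATU8988T count that rose was 4 without control 1 or 2 and 3 without knockdown library 3. PCLAF, a PCNA-associated factor, fell most in PANC1 (log2 change -1.78, limma adjusted p = 4.57e-08), next to UHRF1 (-1.71, adjusted p = 3.37e-08), which recruits the maintenance methyltransferase. UHRF1 also fell most in MIA PaCa-2, from 51.2 to 17.5 FPKM (-1.53, limma adjusted p = 0.000247), followed by USP1, the deubiquitinase of PCNA (-1.08, adjusted p = 0.00692). CDKN1A, the p21 inhibitor that binds PCNA, was the highest in both lines, rising from 19.0 to 29.8 FPKM in PANC1 (0.65, limma adjusted p = 4.98e-07) and from 1.33 to 10.7 FPKM in MIA PaCa-2 (2.95, adjusted p = 0.000202). In PATU8988T the highest was UNG, the uracil glycosylase (0.42, limma adjusted p = 0.000166), and the lowest were SHPRH and HLTF at -0.07 and -0.06 (adjusted p = 0.620 and 0.583). The rise of CDKN1A was larger in MIA PaCa-2 than in PATU8988T by 2.75 on the log2 scale (limma adjusted p = 6.88e-09).

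The specialised polymerases, which act in repair and translesion synthesis, gave mixed calls. Of 15 listed genes, 13 were tested in PANC1 and MIA PaCa-2 and 12 in PATU8988T. In PANC1, 5 fell and 6 rose, in MIA PaCa-2, 0 fell and 2 rose, and in PATU8988T, 1 fell and 2 rose, and the medians were 0.13, 0.17 and 0.01. In MIA PaCa-2, 4 fell and 5 rose without control 2 and 1 rose without any one knockdown library, and in PATU8988T 4 rose without knockdown library 2. POLQ, of end joining, fell in PANC1 (log2 change -0.81, limma adjusted p = 2.15e-05), as did POLH, of ultraviolet lesion bypass (-0.47, adjusted p = 0.000965), while POLI, another bypass polymerase, rose there (0.69, adjusted p = 4.26e-05). In MIA PaCa-2, REV3L, the catalytic subunit of polymerase zeta, was highest (0.93, limma adjusted p = 0.0156), a call lost without any one knockdown library, and POLG and POLG2, of the mitochondrial polymerase, were lowest at -0.36 and -0.24 (adjusted p = 0.110 and 0.186). In PATU8988T, POLH rose (0.31, limma adjusted p = 0.00319), POLL fell (-0.21, adjusted p = 0.0317), a call lost without control 1 or 2 or knockdown library 1, and POLK was at -0.22 (adjusted p = 0.164). Of 12 changes, 2 were lower and 1 higher in PANC1 than in PATU8988T, 1 lower and 2 higher in MIA PaCa-2 than in PATU8988T, and 1 lower and 0 higher in PANC1 than in MIA PaCa-2 (limma interaction terms), to be read against the shares of all genes given above for the same interaction terms.

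Markers of cell cycle phases are given beside the polymerase genes. Of 9 S phase markers, 8 fell in PANC1 and 7 in MIA PaCa-2, while PATU8988T had 0 that fell and 6 that rose. Without any one knockdown library, 4 fell in MIA PaCa-2. RRM2, a subunit of ribonucleotide reductase, fell from 36.5 to 9.25 FPKM in PANC1 (log2 change -1.97, limma adjusted p = 3.43e-09) and from 127 to 60.5 FPKM in MIA PaCa-2 (-1.05, adjusted p = 0.000810), and CCNE2, cyclin E2, fell in both (-1.60, adjusted p = 1.11e-06, and -1.52, adjusted p = 0.00515). CCNE1 rose in PANC1 (0.29, limma adjusted p = 0.00755) and was at -0.02 in MIA PaCa-2 (adjusted p = 0.848). E2F1 rose in PATU8988T (0.49, limma adjusted p = 2.40e-05), where CCNE2 and CDT1 were lowest at -0.02 and 0.04. Of 8 mitosis markers, 8 fell in PANC1 and 6 in MIA PaCa-2, while in PATU8988T 1 fell and 1 rose, or 2 without knockdown library 1. CENPF (-1.31, limma adjusted p = 1.23e-09) and MKI67 (-1.25, adjusted p = 7.48e-09) were lowest in PANC1 and CCNB1 the least reduced (-0.91, adjusted p = 1.09e-08). PLK1 (-1.30, limma adjusted p = 0.000173) and AURKA (-0.99, adjusted p = 0.000419) were lowest in MIA PaCa-2, where CENPF was at -0.34 (adjusted p = 0.208). In PATU8988T CENPF fell (-0.28, limma adjusted p = 0.00670), CENPE was at -0.09 and AURKA rose (0.19, adjusted p = 0.00348). In bulk RNA, fewer cells in a phase and less RNA per cell cannot be told apart, and the part of the cell cycle in the polymerase values was not tested.

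Genes beside the members on the chromosome were looked at as well. Of 23 nearest or overlapping protein-coding neighbours, 11 were tested in PANC1, where 2 fell and 2 rose, 11 in MIA PaCa-2, where 3 fell and 1 rose, and 10 in PATU8988T, where 3 fell and 2 rose. The shares of all genes that fell and rose were 32.2% and 40.1%, 21.7% and 18.7%, and 18.5% and 20.9% in these lines. POLE3 overlaps C9orf43 on the opposite strand by 619 bases, and C9orf43 was at 0.462 to 1.24 FPKM in PANC1 and 0.339 to 0.734 in MIA PaCa-2, below the filter. The other neighbours of POLE3 were ALAD, a heme synthesis enzyme, at 0.13 in PANC1 (limma adjusted p = 0.169) and -0.27 in MIA PaCa-2 (adjusted p = 0.210) and lower in PATU8988T (-0.27, adjusted p = 0.00384), and RGS3, at 0.14 in PANC1 (adjusted p = 0.341), lower in MIA PaCa-2 (-0.54, adjusted p = 0.0202) and at -0.09 in PATU8988T (adjusted p = 0.464). Past a change of 2-fold were CDC42EP2, next to POLA2, which fell in PANC1 (-1.06, limma adjusted p = 7.51e-05) and MIA PaCa-2 (-0.65, adjusted p = 0.0471), where POLA2 was also lower, and HK2, the hexokinase gene next to POLE4, which rose in MIA PaCa-2 (1.18, adjusted p = 0.000276), where POLE4 was lower. HK2 also rose in PANC1 (0.99, limma adjusted p = 1.96e-08), where POLE4 was higher. In PATU8988T, where POLE4 was higher too, HK2 fell (-0.70, limma adjusted p = 5.87e-06). Chosen after their values were seen, CDS2 and PXMP2 start 160 and 241 bases from PCNA and POLE in the opposite direction. CDS2 was at -0.10 in PANC1 and 0.22 in MIA PaCa-2 (limma adjusted p = 0.0645 and 0.0701), and PXMP2 at -0.08 and -0.10 (adjusted p = 0.459 and 0.706) and higher in PATU8988T (0.19, adjusted p = 0.0402). Also chosen after its values were seen, LIPT2, 118 bases from POLD3, was at -0.37 in PANC1 (limma adjusted p = 0.104) and fell in MIA PaCa-2 (-0.48, adjusted p = 0.0491), where POLD3 was lower.

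Across all 18 libraries, the genes whose level relative to the control mean of their line was most like that of POLE3 were LPCAT1, CTSC, PSMD11, UBFD1 and PSMC1, with Pearson r of 0.994, 0.992, 0.992, 0.992 and 0.991 over 18 libraries among 9082 genes. LPCAT1, a lysophospholipid acyltransferase, had log2 changes of -1.07, -1.22 and -0.08 for PANC1, MIA PaCa-2 and PATU8988T, beside -1.05, -1.34 and -0.03 for POLE3. PSMD11 and PSMC1 are proteasome subunits, with changes of -0.80 and -0.44 in PANC1 and -1.02 and -0.59 in MIA PaCa-2. Within the set, POLA2 was nearest at rank 57 (r = 0.978), followed by PCNA at 144 (r = 0.962), POLE at 314 (r = 0.936), POLA1 at 460 (r = 0.915) and POLE2 at 672 (r = 0.885). POLE4 was at rank 4016 (r = 0.201) and POLD2 at 5027 (r = -0.09). The points share the division into lines and knockdown, so r mostly follows the 6 group means.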

How the data were processed

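RNA-seq of 18 libraries from 3 pancreatic cancer lines was analysed. According to the study's methods, total RNA was extracted with TRIzol, sequenced on a NovaSeq instrument, aligned by HISAT2 and tallied per gene by HTSeq-count, whereas the labels name another extraction and library kit, and the submitters' processing notes list hg38 beside the mouse builds GRCm38 and mm10 with no role. The authors deposited FPKM values in 1 table, and each column was matched to its sample by title. In each line a gene length was searched for every gene above 0 (16308, 20604 and 21498) so that its values were whole reads, and all values came within 0.002 of a whole read. Genes with values in few libraries can reach this by chance. Members had 209 to 12262 reads per library.

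Within each line, log2(FPKM + 0.1) of genes with a mean of at least 1 FPKM entered a linear model in limma 3.58.1 (R 4.3.3; lmFit and eBayes with trend), with Benjamini-Hochberg adjustment over all genes tested and a threshold of 0.05. Fold changes of low genes are understated on this scale. Differences between lines were interaction terms in 1 fit of all libraries. SEs are limma's, SDs are of FPKM over 3 libraries, and the 3 by 3 design cannot reach p under 0.1 in an exact permutation test. The scripts were tested on simulated data.

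The members and gene lists were chosen with earlier results of these data known. Named were all 10 members, OFD1, the other subunits, the POLE3 chromatin partners, the 2 lowest and 1 highest genes of each other list per line, neighbours of POLE3 and other neighbours past a 2-fold change, and the 5 genes most like POLE3. The planned test of control levels between lines is not reported, because control values are part of the contrasts that chose the genes. The libraries were not treated as paired by replicate number in the main fits. Alternatives were a pseudocount of 1, no filter, a filter of 5 FPKM, equal medians, 1 fit of 18 libraries, a replicate block and each library left out. GC content came from GENCODE transcripts, matched for 92.0% to 98.1% of genes tested, and positions from its GRCh38 annotation.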

Additional observations from a re-analysis of the deposited data

Results flagged for a closer look

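For several members the values had opposite signs in different lines, with every knockdown library of one line above its control mean and every knockdown library of the other below it. The difference between lines was not tested for any of them, because the same contrasts had chosen the genes. PCNA was higher in PATU8988T and lower in MIA PaCa-2, a difference of 1.46 between the log2 fold changes. POLD3 was higher in PATU8988T and lower in MIA PaCa-2 (0.87). POLE2 differed by 1.17 between PATU8988T and PANC1 and POLA2 by 1.10 between PATU8988T and MIA PaCa-2, but their PATU8988T values, 0.20 and 0.09, did not pass the threshold, and the POLE2 groups overlapped there. POLE4 went the other way, higher in PANC1 and lower in MIA PaCa-2 (1.17). Its MIA PaCa-2 call was lost with no filter, equal medians or a replicate block, and without control 3 or any one knockdown library. Without control 2 its MIA PaCa-2 value was -0.34 instead of -0.52. POLD2 differed by 0.52 between MIA PaCa-2 and PANC1, where its MIA PaCa-2 value of 0.27 did not pass and its groups overlapped, and without control 2 of that line the value was 0.42.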

How the results depend on the processing

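Of the values recomputed under other settings, 467 stayed within the spread between replicates or, for counts, within 1.5 times the main count. Another 6 moved by more than the spread, 4 counts became smaller by over 1.5 times and 1 became larger. Whether a gene was still called was not part of this comparison, and calls were lost among the 467, such as that of POLE4 in MIA PaCa-2. No called value among those recomputed changed sign. POLD1 in MIA PaCa-2 went from -0.17 to 0.08 without control 2, and uncalled values near 0 changed sign without 1 library for POLD3 in PANC1 and POLE3, POLA1 and POLE in PATU8988T. In MIA PaCa-2, leaving out each library in turn gave 5 to 8 members called lower, 16 to 36 replication genes called lower, and a difference of POLE3 from the median of the other members between -0.83 and -0.69, the last without control 1. The count of 36 was without control 2 and the counts of 5 without any one knockdown library. In a single fit of all 18 libraries, 1 replication gene fell in PATU8988T instead of 3. With the replicate number as a block, 7 members and 17 replication genes were called lower in MIA PaCa-2, 14 replication genes instead of 15 rose in PATU8988T, and the counts of members and replication genes called lower in the other lines did not move. In single lists the block moved counts by 1 to 3 genes, the most for PCNA-bound proteins in MIA PaCa-2, with 6 lower instead of 9. Deviations of same-numbered libraries from their group means correlated between -0.11 and 0.13. With 3 libraries per group this cannot show whether they shared a culture or a day of processing. With a pseudocount of 1 the PANC1 changes of POLE, POLE3, POLA1 and POLA2 were nearer 0, by more than the replicate SD, and POLE3 in MIA PaCa-2 was at -1.30 after rescaling to equal medians. Precision is limited by 3 libraries per group and, in MIA PaCa-2, by control 2.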
